A study of Rattus norvegicus with 36 samples.

Results

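Gfap, S100b and 7 further genes by which cells of the astrocyte lineage are recognised were followed through 6 groups of rat CG-4 cells. The 9 genes were chosen by name (Gfap, S100b, Aqp4, Aldh1l1, Slc1a2, Slc1a3, Glul, Vim and Nes), and their features were found by gene symbol in the gene-level and exon-level tables. Of the 9 genes, 7 had a named feature, with 1 transcript cluster each among 18901 clusters and 69 probe sets in all among 204586. A transcript cluster summarises a gene and a probe set about an exon. Aldh1l1 and Glul are not analysed here.

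CG-4 is a line of rat oligodendrocyte progenitor cells, grown here with medium conditioned by B104 cells. Lipofectamine carried in a small interfering RNA (siRNA) against QKI, an siRNA against hnRNP A1, or a non-silencing siRNA. Of 2 stable lines, 1 expressed a short hairpin RNA (shRNA) that targets QKI and its control a non-silencing shRNA, and the last group was untreated. Each group had 3 arrays, labelled as biological replicates. The sources used here do not say whether a stable line is 1 clone or a pool, and give no siRNA or shRNA sequence.

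In the brain Gfap forms the intermediate filaments that define mature astrocytes, and S100b is a small calcium-binding protein of astrocytes that cells of the oligodendrocyte lineage also make. CG-4 cells can turn into oligodendrocytes or, in serum, into astrocyte-like cells. The genes were chosen as marks of the second fate, but not all of them are particular to it. A change of a single gene is therefore not read as a change of fate. QKI binds RNA and is required to form myelin, while hnRNP A1 is a splicing regulator. The RNA comes from whole cultures, so more cells of a kind and more RNA per cell cannot be told apart.

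The sequence before the start of Gfap and of S100b is shown because these 2 genes moved in opposite directions in the QKI shRNA line. Both are the 250 bases upstream of the first listed RefSeq start in assembly GRCr8, read 5′ to 3′ on the gene's own strand. Gfap lies on the minus strand with its window at chr10:88361662-88361911, and S100b on the minus strand with its window at chr20:12381082-12381331. Capitals mark matches, on either strand, to the letters of 4 motifs. A STAT site was searched as TTCNNNGAA and a nuclear factor I motif as TTGGC. An E-box was searched as CANNTG, and the letters searched for a TATA box were TATAAA. Matches of different motifs may share letters.
Gfap: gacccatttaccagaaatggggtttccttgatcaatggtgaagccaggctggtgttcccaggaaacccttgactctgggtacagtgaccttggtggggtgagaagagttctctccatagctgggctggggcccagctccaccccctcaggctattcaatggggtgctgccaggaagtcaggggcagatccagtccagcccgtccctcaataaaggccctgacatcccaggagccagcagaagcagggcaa
S100b: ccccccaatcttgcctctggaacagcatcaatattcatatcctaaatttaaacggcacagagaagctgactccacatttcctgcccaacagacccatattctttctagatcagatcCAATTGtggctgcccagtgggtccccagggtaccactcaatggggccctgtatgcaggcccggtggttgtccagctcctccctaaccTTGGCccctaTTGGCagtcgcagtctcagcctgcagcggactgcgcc
The S100b window holds 2 nuclear factor I motifs and 1 E-box, and that of Gfap holds none of the 4 motifs. Of 33469 rat promoter windows of this length, 7.67% hold a STAT site, 40.3% a nuclear factor I motif, 65.5% an E-box and 12.9% a TATA box. Vim has a TATA box and 2 nuclear factor I motifs, and Nes has none of the 4 motifs. These are matches of letters and were not tested as binding sites.

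The levels of the genes in these cells covered a wide range on the deposited log2 intensity scale. As means over all 18 arrays, Vim lay at percentile 99.8 of all clusters, S100b at 84.5, Nes at 81.7, Slc1a3 at 71.1 and Gfap at 68.7. Slc1a2, the main astrocyte glutamate transporter of the adult forebrain, lay at percentile 53 with 3.76 to 4.63 on single arrays. Aqp4, the water channel of astrocyte endfeet, lay at percentile 13.7 with 2.98 to 3.61, near the dim end of the array. Of 7 genes, 4 differed somewhere among the 6 groups in limma's F test, namely S100b (adjusted p = 2.04e-05), Slc1a3 (adjusted p = 0.00402), Nes (adjusted p = 0.00782) and Vim (adjusted p = 0.0103). Over all clusters 9.92% passed this test. Gfap did not pass it (adjusted p = 0.0647).

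**Figure D1:**
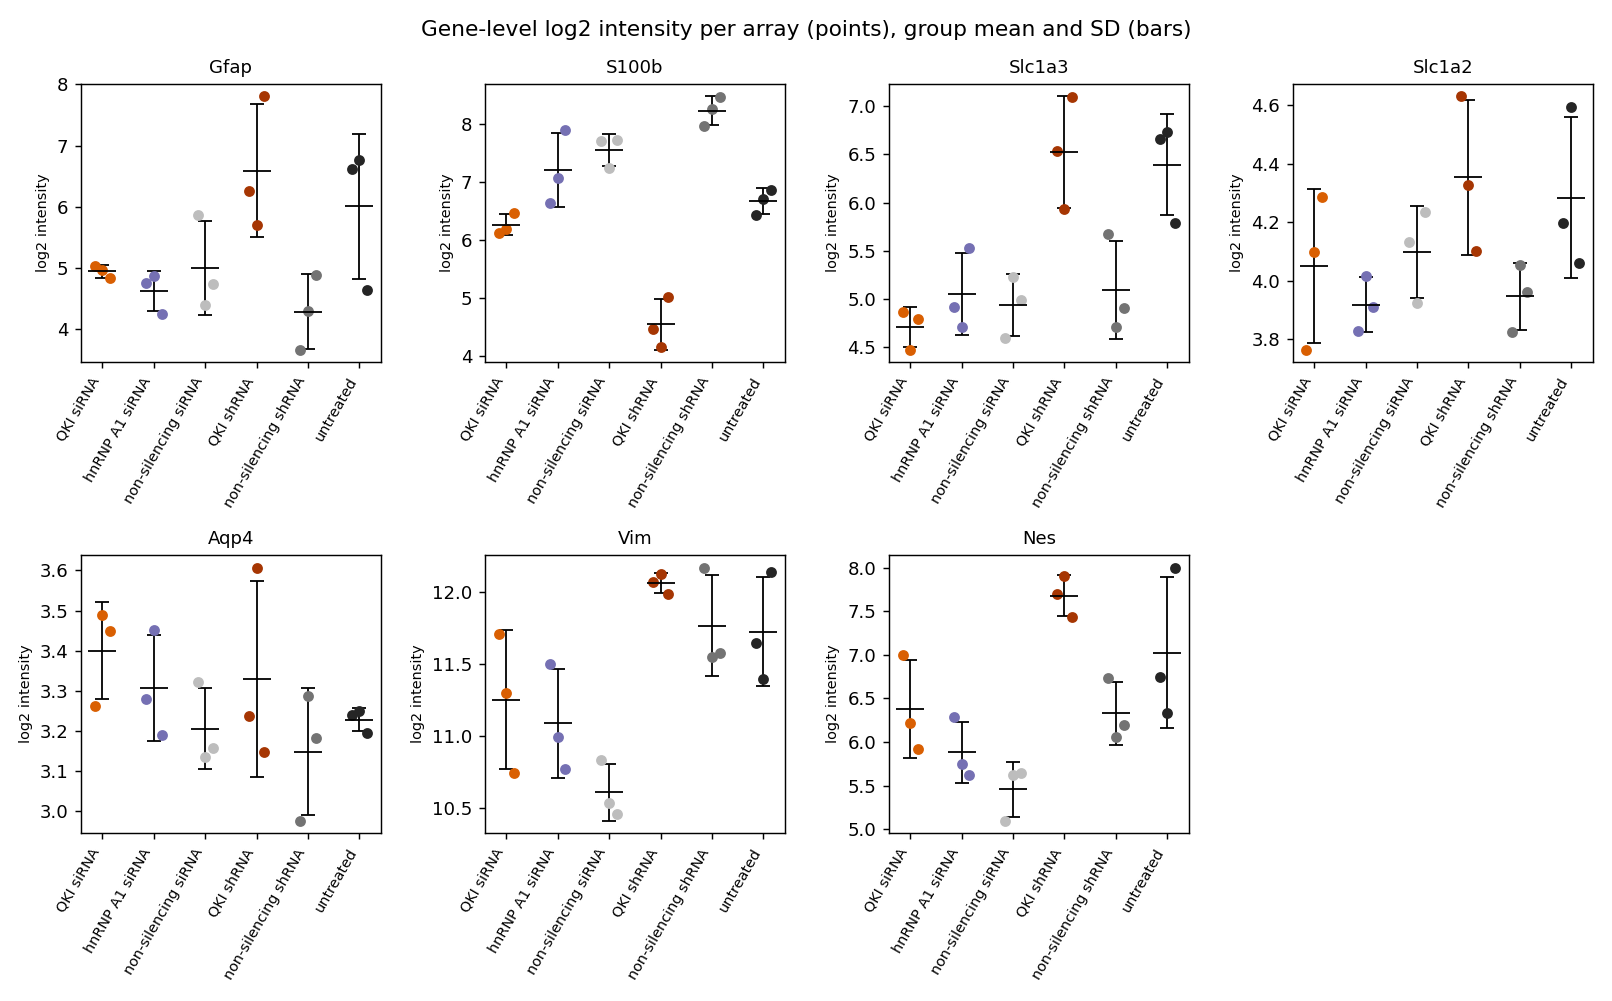
Each panel gives 1 gene, with the log2 intensity on the y axis and the 6 groups on the x axis, and points are single arrays with bars for the group mean and SD of 3 arrays. S100b is lowest and Gfap highest on average in the QKI shRNA line, and the y axes differ between panels.

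Pairs of arrays had correlations of 0.937 to 0.991, and for 7 of the 18 the closest array belonged to another group. Untreated array 3 was closest to QKI siRNA array 1, and the array labelled QKI shRNA 3 to untreated array 2. Qki itself, the knockdown target, lay at 9.99, 10.02 and 9.67 with QKI siRNA, against 11.47, 11.39 and 11.14 with non-silencing siRNA (log2 change -1.44 ± 0.22, limma moderated SE, adjusted p = 0.179). In the arrays labelled QKI shRNA Qki lay at 10.65, 10.35 and 11.14, against 10.90, 11.01 and 10.99 in the non-silencing shRNA line (log2 change -0.25, adjusted p = 0.656). The third of these is above all 3 of its controls, so the directions given for this line rest on its label. Hnrnpa1 changed by -0.70 with hnRNP A1 siRNA (adjusted p = 0.393).

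Cells with QKI shRNA were compared with the non-silencing shRNA line to ask how the astrocyte-lineage genes stand in a line labelled as carrying QKI shRNA. Gfap, the glutamate transporter Slc1a3 and nestin (Nes) rose and S100b fell, while Vim, Aqp4 and Slc1a2 did not pass the test. That is 4 of 7 genes called at an adjusted p under 0.05 (3 higher and 1 lower), where 10.3% of all clusters were called, 3.38% higher and 6.9% lower. The median change of all clusters was 0.01. Here and below, groups said not to overlap are a description of these arrays. The share of all clusters for which this holds was not counted.

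S100b moved furthest of the 7 genes. It lay at 4.46, 4.16 and 5.02 in the QKI shRNA line, against 7.97, 8.26 and 8.47 in the non-silencing line. All 3 QKI shRNA arrays were below every other array of the series for this gene. The log2 change was -3.68 ± 0.27, or 12.8-fold lower (adjusted p = 1.37e-06), and it was called in all 16 alternatives run. These include the mean of the 3 probe sets that fell, which was picked from this same comparison and is no check of the call. They also include the mean of all 4 probe sets, which equals the gene-level value of S100b and is no check either.

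Gfap showed the opposite direction with more scatter. Its levels were 6.26, 5.70 and 7.81 in the QKI shRNA line, against 3.66, 4.29 and 4.89 in the non-silencing line. The groups do not overlap, and the array labelled QKI shRNA 3 is the highest of all 18. The log2 change was 2.31 ± 0.57, or 4.95-fold higher (adjusted p = 0.0143). Without QKI shRNA array 3 it was 1.70 (adjusted p = 0.0584) and without non-silencing shRNA array 1 it was 2.00 (adjusted p = 0.0693), so either array ends the call.

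Slc1a3 (GLAST), which clears glutamate from around synapses and marks radial glia and astrocytes, lay at 6.54, 5.93 and 7.09 in the QKI shRNA line, against 5.67, 4.71 and 4.90 in the control line. All arrays of the first group were above those of the second. The log2 change was 1.42 ± 0.33, or 2.68-fold higher (adjusted p = 0.00989). Without non-silencing shRNA array 2 it was 1.23 (adjusted p = 0.0531), and with the 6 compared arrays fitted alone the adjusted p was 0.0549, so both end the call.

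Of the filament genes of immature glia Nes passed the test and Vim did not. Nes, an intermediate filament of neural stem and progenitor cells, lay at 7.70, 7.90 and 7.43 in the QKI shRNA line, against 6.73, 6.06 and 6.20 in the control line, with no overlap. Its log2 change was 1.35 ± 0.36, or 2.55-fold higher (adjusted p = 0.0249), but it failed the threshold without QKI shRNA array 1 or 2 or non-silencing shRNA array 2 or 3 (adjusted p from 0.0714 to 0.1). Vim (vimentin), the filament that Gfap joins in maturing astrocytes, lay at 12.07, 12.13 and 11.99, against 12.17, 11.55 and 11.58 in the control line. These groups overlap, and the log2 change of 0.29 ± 0.25 did not pass (adjusted p = 0.647).

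Slc1a2 and Aqp4 did not pass at the gene level. Slc1a2 lay at 4.63, 4.33 and 4.10 in the QKI shRNA line, against 3.82, 4.05 and 3.96 in the control line (log2 change 0.41 ± 0.17, adjusted p = 0.172). Aqp4 lay at 3.24, 3.61 and 3.15, against 2.98, 3.29 and 3.18 (log2 change 0.18 ± 0.13, adjusted p = 0.54). The groups of Slc1a2 do not overlap and those of Aqp4 do.

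**Figure D2:**
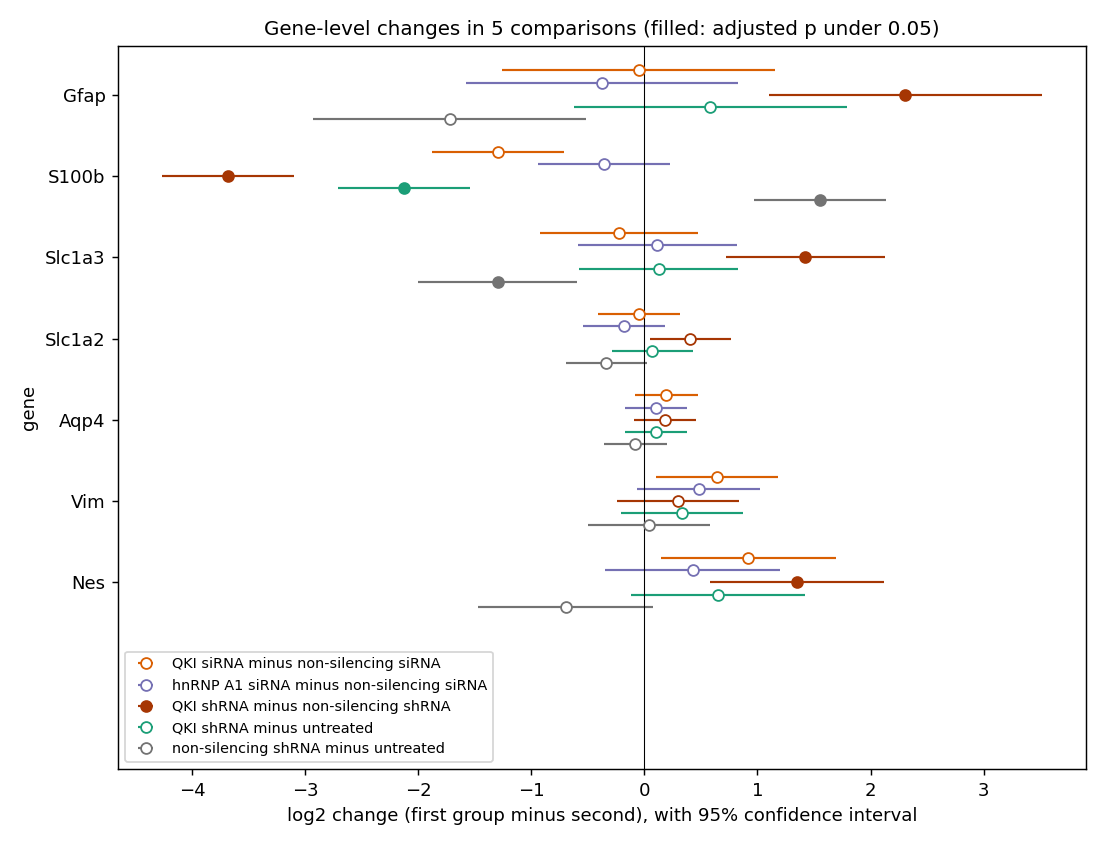
The x axis gives the log2 change of 7 genes (rows) in 5 comparisons (colours), with 95% confidence intervals and filled points where the adjusted p is under 0.05. The QKI shRNA line against its control line shows Gfap at 2.31 and S100b at -3.68.

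Against untreated cells the same QKI shRNA arrays gave other values for Gfap. Untreated cells had Gfap at 6.62, 6.76 and 4.64, within or below the range of the QKI shRNA line, and the log2 change was 0.58 ± 0.57 (adjusted p = 0.838). Without QKI shRNA array 3 and untreated array 3 it was -0.71 (adjusted p = 0.414), so its sign rests on those arrays. S100b lay at 6.44, 6.72 and 6.87 in untreated cells, above every QKI shRNA array, and fell (log2 change -2.13 ± 0.27, adjusted p = 0.000658). It was the 1 gene of 7 called here, where 2.04% of clusters were. Slc1a3 lay at 6.66, 6.73 and 5.79 in untreated cells, with a log2 change of 0.13 ± 0.33 (adjusted p = 0.953). Nes lay at 6.74, 6.33 and 8.0 in untreated cells (log2 change 0.65, adjusted p = 0.581).

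The non-silencing shRNA line itself differed from untreated cells in 2 of these genes, S100b and Slc1a3. This comparison shares arrays with both comparisons above. S100b rose by a log2 change of 1.56 ± 0.27 in the non-silencing line (adjusted p = 0.00794) and Slc1a3 fell by 1.30 ± 0.33 (adjusted p = 0.0428), 2 of 7 genes called where 3.26% of clusters were. Gfap had a log2 change of -1.72 ± 0.57 (adjusted p = 0.121), with 4.89 on the highest non-silencing array and 4.64 on the lowest untreated one. Without untreated array 3 it was -2.41 and passed (adjusted p = 0.016). Thus for S100b the non-silencing shRNA line was highest, untreated cells stood between, and the QKI shRNA line was lowest, each group apart from the next of these 3. For Gfap and Slc1a3 the QKI shRNA line and untreated cells overlapped, and both had higher means than the non-silencing line. The call of Slc1a3 was lost without untreated array 1 or 2 or non-silencing shRNA array 2 or 3 (adjusted p from 0.15 to 0.18).

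The comparison of QKI siRNA with non-silencing siRNA asks whether short-term knockdown of QKI moves the same genes. None of the 7 genes was called by limma, with 3 at an unadjusted p under 0.05 (S100b, Vim and Nes), and 0% of all clusters were called, with 1721 at an unadjusted p under 0.05. S100b lay at 6.13, 6.20 and 6.47 with QKI siRNA, against 7.71, 7.24 and 7.73 with non-silencing siRNA, with no overlap (log2 change -1.29 ± 0.27, adjusted p = 0.29). Gfap lay at 5.03, 4.96 and 4.83 with QKI siRNA, inside the range of 5.86, 4.38 and 4.73 with non-silencing siRNA. Its log2 change was -0.05 with a 95% confidence interval of -1.26 to 1.15.

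The filament genes of the siRNA cultures were higher in value with QKI siRNA but not called. Nes lay at 7.0, 6.21 and 5.92 with QKI siRNA, against 5.10, 5.63 and 5.65 with non-silencing siRNA, with no overlap (log2 change 0.92 ± 0.36, adjusted p = 0.484). Vim lay at 11.71, 11.30 and 10.75, against 10.83, 10.54 and 10.46, with QKI siRNA array 3 inside the control range (log2 change 0.64 ± 0.25, adjusted p = 0.484). The other genes had log2 changes of -0.22 (Slc1a3), -0.05 (Slc1a2) and 0.19 (Aqp4). With array quality weights, which give scattered arrays less weight, 4 genes were called: S100b (-1.32, adjusted p = 0.00108), Vim (0.73, adjusted p = 0.00686), Aqp4 (0.30, adjusted p = 0.0274) and Nes (0.70, adjusted p = 0.0401). The share of all clusters called under these weights was not computed, so this count is not read as particular to these genes.

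The size of the S100b change differed between the line labelled QKI shRNA and cells with QKI siRNA, each against its own control arrays. These controls had S100b means of 8.23 (non-silencing shRNA) and 7.56 (non-silencing siRNA). The shRNA effect of -3.68 less the siRNA effect of -1.29 gave -2.39 ± 0.39 (adjusted p = 0.00268), the 1 of 7 genes called in this test, where 4.71% of clusters were. It was called in all 22 alternatives run, which include the mean of the probe sets picked because they fell in the QKI shRNA line. They also include the mean of all its probe sets, which equals the gene-level value of S100b and is no check. Gfap had a difference of 2.36 ± 0.80 (adjusted p = 0.122) and Slc1a3 of 1.65 ± 0.47 (adjusted p = 0.0564), neither of which passed.

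With hnRNP A1 siRNA against non-silencing siRNA, none of the 7 genes was called and none had an unadjusted p under 0.05, where 0.00529% of clusters were called and 1331 had an unadjusted p under 0.05. Gfap lay at 4.76, 4.86 and 4.24 with hnRNP A1 siRNA (log2 change -0.37 ± 0.57). S100b lay at 6.64, 7.08 and 7.89, around the 7.24 to 7.73 of the control (log2 change -0.35 ± 0.27, adjusted p = 0.898). Vim had the largest change of the 7 genes at 0.48 ± 0.25 (adjusted p = 0.772). Between QKI siRNA and hnRNP A1 siRNA 0 of 7 genes were called by limma, as were 0% of clusters, and 603 clusters had an unadjusted p under 0.05. There S100b had a log2 change of -0.94 ± 0.27, with all QKI siRNA arrays below all hnRNP A1 siRNA arrays and the 1 unadjusted p under 0.05 of the 7 genes.

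The siRNA groups were also set against untreated cells. With QKI siRNA against untreated cells Slc1a3 fell by 1.68 ± 0.33 on the log2 scale (adjusted p = 0.0362), with QKI siRNA arrays at 4.87, 4.48 and 4.80, and was the 1 gene of 7 called, where 0.46% of clusters were. That call was lost without QKI siRNA array 2 or 3 or untreated array 1 or 2 (adjusted p from 0.0747 to 0.198). With hnRNP A1 siRNA against untreated cells limma called 0 of 7, with 5 at an unadjusted p under 0.05, and 0.296% of clusters (2365 at an unadjusted p under 0.05). Slc1a3 had a log2 change of -1.34 (adjusted p = 0.0942) there. With non-silencing siRNA against untreated cells 0 of 7 were called, with 4 at an unadjusted p under 0.05, and 0.0794% of clusters (1953 at an unadjusted p under 0.05). Log2 changes there were -1.46 for Slc1a3, -1.12 for Vim, -1.57 for Nes, 0.88 for S100b and -1.01 for Gfap. The groups of Gfap overlap and those of the other genes named do not, a trait not counted over all clusters. These 3 comparisons share the untreated arrays.

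The exon-level probe sets show how evenly the signal of each gene moved. In the QKI shRNA line against its control line 15 of 69 probe sets were called (12 higher and 3 lower), where 4.95% of all probe sets were, 2.08% higher and 2.87% lower. Probe sets of 1 gene share their transcript and are not replicates. All 11 Gfap probe sets had changes above 0 (0.05 to 3.82, median 2.25), and 5 rose. The brightest of them averaged 9.66 in the QKI shRNA line and 7.20 in the control line. All 12 probe sets of Slc1a3 (0.36 to 2.61) and all 13 of Nes (0.11 to 2.26) lay above 0 too, of which 3 and 2 rose. Slc1a2, not called as a gene, had 2 probe sets of 12 that rose, by 1.75 and 1.69. None of the 11 probe sets of Vim and none of the 6 of Aqp4 was called.

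**Figure D3:**
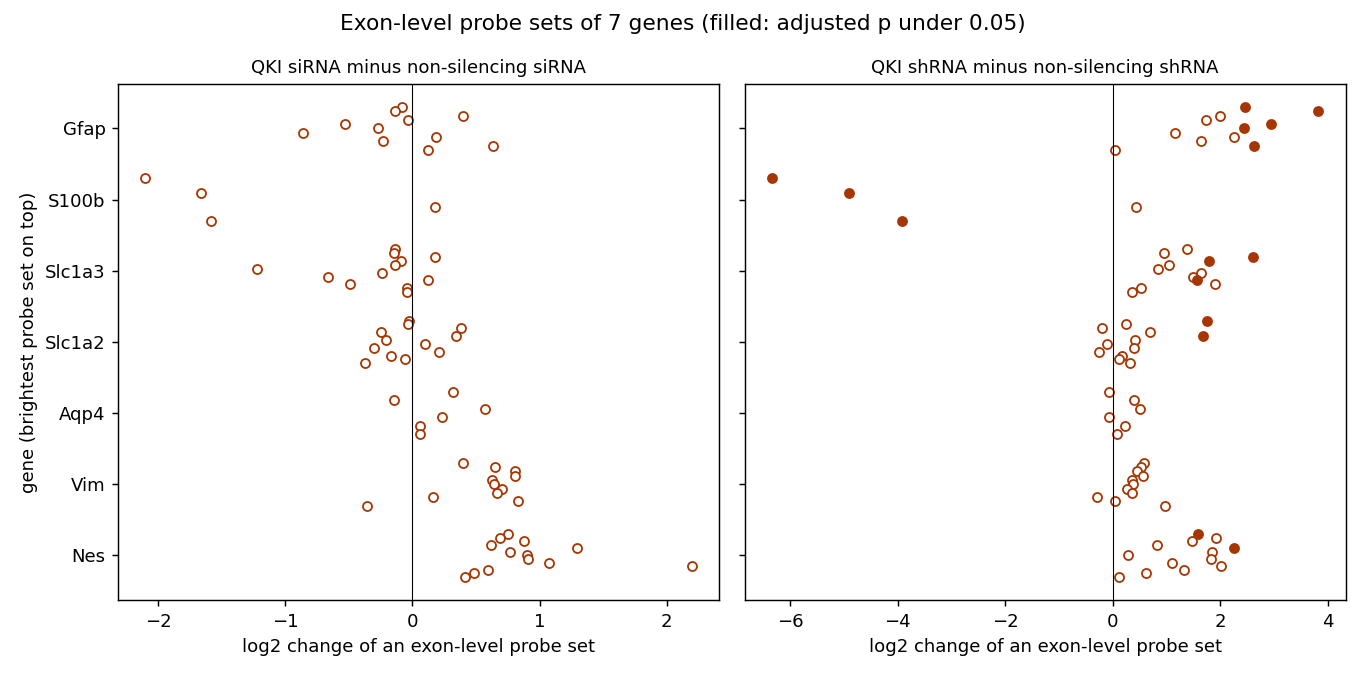
Each point is 1 exon-level probe set, with its log2 change on the x axis and the genes on the y axis, for QKI siRNA (left) and the QKI shRNA line (right), each against its own control. All 11 Gfap probe sets lie above 0 on the right, and 3 of the 4 S100b probe sets lie far below 0.

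S100b has 4 probe sets, and 3 of them fell. The brightest lay at 3.84, 3.38 and 5.70 in the QKI shRNA line, against 10.67, 10.58 and 10.70 in the control line (log2 change -6.34 ± 0.47, adjusted p = 3.15e-06). The values of 3.84 and 3.38 are near the 25th percentile of probe set means (3.40), so the size of this change is uncertain. The second and the fourth in brightness changed by -4.91 ± 0.38 and -3.92 ± 0.43. The third lay at 5.91, 6.18 and 5.42 in the QKI shRNA line, against 4.70, 6.01 and 5.48, and did not pass (log2 change 0.44 ± 0.39, adjusted p = 0.657). The gene-level value of S100b equals the plain mean of its 4 probe sets on every array, so the third probe set is part of the change of -3.68. The mean of the other 3 probe sets, an alternative chosen after seeing the data, changed by -5.06 ± 0.36 in the QKI shRNA line and by -1.78 ± 0.36 with QKI siRNA (adjusted p = 0.265). This mean and the gene-level value both contain the brightest probe set, so the sizes of their changes in the QKI shRNA line are uncertain too.

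**Figure D4:**
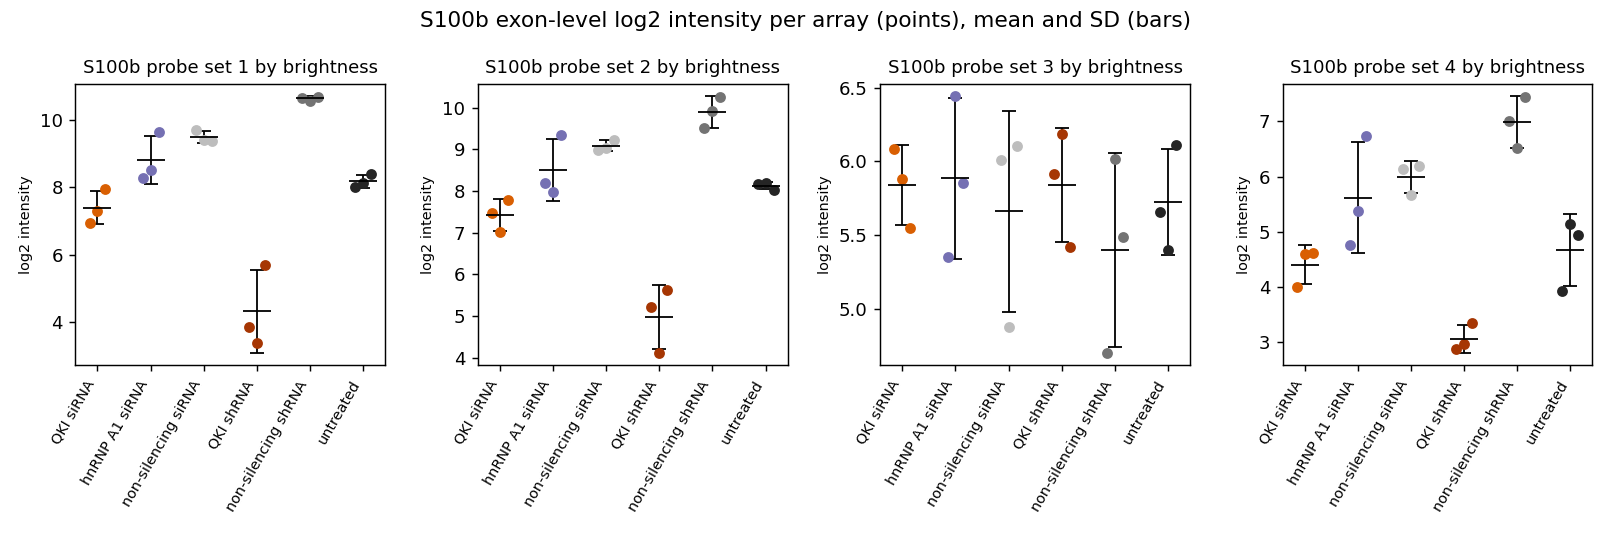
The 4 panels give the S100b probe sets in order of brightness, with log2 intensity per array on the y axis, the 6 groups on the x axis and bars for the mean and SD of 3 arrays. In the QKI shRNA line 3 probe sets are the lowest of all groups, and the third in brightness overlaps across all groups.

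Exon usage was taken on each array as a probe set's value less that of its gene. Of 57 probe sets that could be tested, 3 were called in the QKI shRNA comparison, where 0.636% of all probe sets tested were, and all 3 are of S100b. The third in brightness had a usage change of 4.12 ± 0.41 (adjusted p = 0.000131), and the 2 brightest had -2.66 and -1.23, each measured against a gene level that contains them. As that gene level is the plain mean of the S100b probe sets, these values restate the probe set changes above, and the 3 calls are not independent. They cannot tell a change of exon usage from a probe set that does not respond. In Gfap the lowest adjusted p over 10 probe sets was 0.163. With QKI siRNA limma called 0 of 69 probe sets and 0 of 57 in usage (0% of all probe sets in both), with 13 and 6 at an unadjusted p under 0.05. With hnRNP A1 siRNA it called 0 of 69 (0.000978% of all) and 0 of 57 in usage (0% of all), with 5 and 6 at an unadjusted p under 0.05. Tested with diffSplice, 3 probe sets of the 7 genes were called in the QKI shRNA comparison and 0 in both siRNA comparisons. The share of all probe sets called by diffSplice was not computed.

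Other genes of the lineage were taken from 7 lists, and their changes in the QKI shRNA line are compared with the 10.3% of clusters called and the median change of 0.01. Of 20 other astrocyte markers measured, 0 rose and 4 fell, with a median change of -0.04. Log2 changes were -4.04 ± 0.40 for Gpr37l1, a glial receptor (adjusted p = 1.51e-05), and -3.26 ± 0.52 for Fgfr3, a fibroblast growth factor receptor (adjusted p = 0.00067). They were -1.44 ± 0.36 for Aldoc, the brain aldolase, and -1.72 ± 0.47 for Ndrg2, a cytoplasmic protein of astrocytes. Gpr37l1 and Fgfr3 were called in all 14 other settings, Aldoc in 8 and Ndrg2 in 7. The calls of Aldoc and Ndrg2 ended without QKI shRNA array 1 or 2 or non-silencing shRNA array 2 or 3, and that of Ndrg2 also without non-silencing shRNA array 1. Gap junction gene Gja1 was dim in all groups, with group means from 2.94 to 3.12. Against untreated cells Gpr37l1 fell by 2.48 (adjusted p = 0.00365), and Fgfr3 had a log2 change of -1.47 (adjusted p = 0.212). Log2 changes against untreated cells were -0.13 for Aldoc (adjusted p = 0.955) and -1.35 for Ndrg2 (adjusted p = 0.205).

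Regulators of the astrocyte fate and of Gfap, among them the JAK-STAT, BMP, Notch and nuclear factor I genes, rose in 5 and fell in 3 of 28 measured, with a median of 0.25. Osmr, a receptor subunit of the oncostatin M pathway, rose by 0.55 ± 0.11, Smad4, the shared mediator of BMP and TGF-β signals, by 0.79 ± 0.18, and Nfix, a nuclear factor I gene, by 0.67 ± 0.17. Nfix was called in 8 of 14 other settings and not without QKI shRNA array 3 or non-silencing shRNA array 2 or 3. Osmr was dim, with 3.13 to 3.26 on the control arrays, under the 25th percentile of cluster means (3.45), so the size of its change is uncertain. Hes5, a Notch target that holds back neuronal differentiation, fell by 1.58 ± 0.34 (adjusted p = 0.00663).

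Of 24 reactive astrocyte genes 4 rose and 0 fell, with a median of 0.14. Fbln5, an elastic-fibre protein, rose by 2.06 ± 0.19 (adjusted p = 8.71e-06), Cd14, a co-receptor for lipopolysaccharide, by 1.35 ± 0.23 and Cd44, the hyaluronan receptor, by 1.5 ± 0.46 (adjusted p = 0.0498), and Osmr is on this list too. The groups of Cd44 overlap, with 5.07 on QKI shRNA array 3 and 5.23 on non-silencing shRNA array 1. Cd44 was called in 8 of 14 other settings and not without QKI shRNA array 1 or 2 or non-silencing shRNA array 2 or 3. Of 11 neural stem and radial glia genes 3 rose (Cdh2 by 1.17, Mki67 by 1.22 and Lin28b by 0.57) and 1 fell (Hes5), with a median of -0.14. Cdh2 is N-cadherin, Mki67 marks dividing cells, and Lin28b binds let-7 precursors. Mki67 was called in 9 of 14 other settings and not without QKI shRNA array 2 or non-silencing shRNA array 2 or 3. Lin28b was called in 12 of 13 and lay at 3.12 to 3.16 on the control arrays, as dim as Aqp4, so the size of its change is uncertain.

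Relatives of the proteins studied were counted in the same way. Of 15 other intermediate filaments and their partners 1 rose (Nefm, a neurofilament, by 0.73 ± 0.19) and 1 fell (Prph, peripherin, with a change of -2.44 ± 0.24), with a median of 0.00. Of 11 other S100 proteins limma called 0, with 0 at an unadjusted p under 0.05, a median change of 0.03 and a range of -0.31 to 0.91. Of these 11, 6 lay under the 25th percentile of clusters, where a fall can hardly show. Over all 18901 clusters 3850 had an unadjusted p under 0.05. Of 16 genes of glutamate and glutamine handling 0 rose and 3 fell, with a median of -0.09: the transporter Slc1a1 with -1.31 ± 0.36, the aminotransferase Got1 with -1.21 ± 0.21 and the glutaminase Gls2 with -0.61 ± 0.13. Nefm was called in 8 of 14 other settings and Slc1a1 in 7, and neither was called without QKI shRNA array 1 or 2 or non-silencing shRNA array 2 or 3, nor Slc1a1 without non-silencing shRNA array 1. Slc1a1 lay at 8.30, 8.42 and 9.89 in the QKI shRNA line, with array 3 closest to the control arrays. In both siRNA comparisons against non-silencing siRNA 0 of the 122 genes on the 7 lists were called by limma, with 5 in each at an unadjusted p under 0.05. In the QKI shRNA line limma called 23 of these 122 against the non-silencing line and 6 against untreated cells (2.04% of clusters). In the non-silencing line 9 were called against untreated cells (3.26% of clusters). Prph lay at 6.48, 6.62 and 6.98 in untreated cells, against 8.73, 8.44 and 8.49 in the non-silencing line. Got1 lay at 8.37, 8.29 and 8.87, against 9.33, 9.91 and 9.99. So changes against that line are not read as changes of the QKI shRNA line alone.

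**Figure D5:**
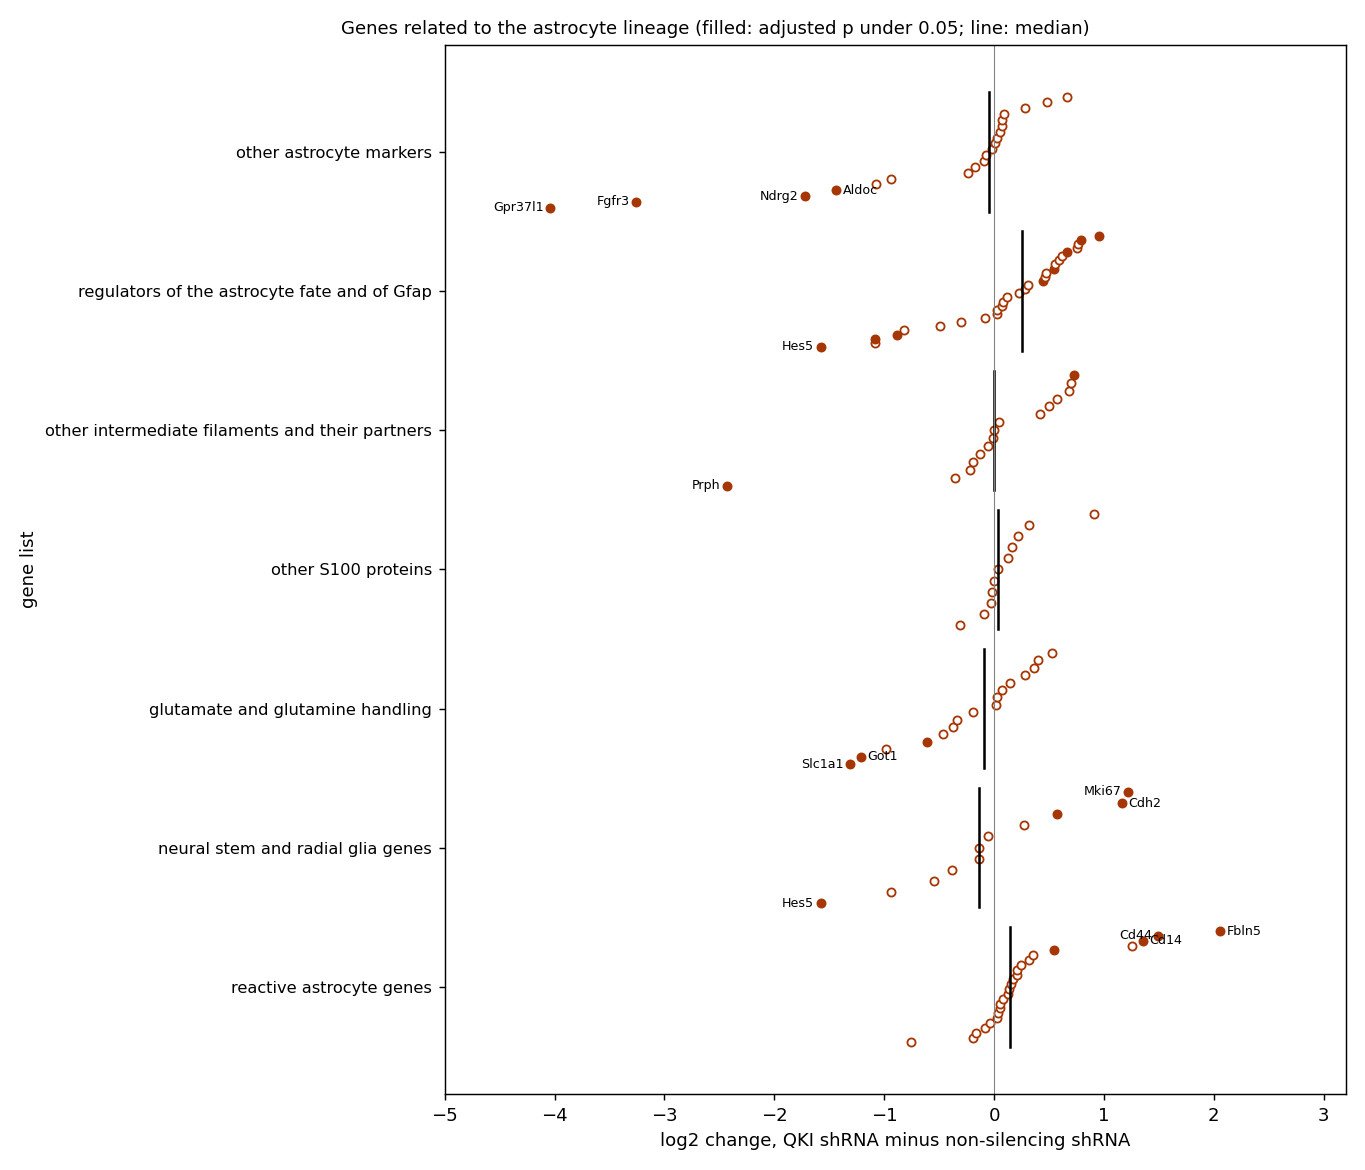
Each point is a gene of 1 of 7 lists (rows), with its log2 change in the QKI shRNA line against the non-silencing line on the x axis, filled where called, and vertical lines at the list medians. Gpr37l1 and Fgfr3 lie furthest to the left and Fbln5 furthest to the right.

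Markers of other cell types were read beside these changes and the same 10.3% of clusters called (6.9% lower). Of 8 oligodendrocyte markers 4 fell in the QKI shRNA line (log2 changes of -4.24 for Mbp, -3.49 for Enpp2, -2.71 for Cnp and -1.74 for Ugt8), and the mean level of the list was 4.95 to 5.79 per array in that line, against 6.52 to 7.12 in the control line. Of 7 progenitor markers 2 fell, with log2 changes of -1.26 for Olig1 and -1.2 for Bcan (7.61 to 8.5, against 8.55 to 8.71). Mbp, Cnp and Olig1 were called in all 14 other settings, Enpp2 in 13, and Ugt8 and Bcan in 8 each. Ugt8 and Bcan were not called without QKI shRNA array 1 or 2 or non-silencing shRNA array 3, nor Ugt8 without non-silencing shRNA array 2 or Bcan without array 1 of that line. Enpp2 lay at 5.64, 5.11 and 9.29 in the QKI shRNA line, with array 3 apart. The called genes of these lists fell, as did S100b, Gpr37l1 and Fgfr3, and their part in those changes was not tested. Of 8 neuron, 10 microglia and 8 fibroblast markers limma called 0 in each, with 1, 0 and 0 at an unadjusted p under 0.05 (3850 of all 18901 clusters). The microglia list lay at 3.52 to 3.73 per array in the QKI shRNA line and 3.48 to 3.71 in the control line, with Cx3cr1, Csf1r, Itgam and Ptprc under the 25th percentile of clusters. The fibroblast list lay at 3.6 to 3.82, against 3.42 to 3.81, and the neuron list at 5.48 to 5.73, against 5.59 to 5.71. Among the 8 fibroblast markers 4 lay under the 25th percentile of clusters. Of 8 Schwann cell markers Cdh19 rose (1.56) and Pmp22 fell (-2.84) (5.24 to 5.45, against 5.40 to 5.49). Pmp22 averaged 4.86 in the QKI shRNA line, 7.70 in the control line and 6.20 in untreated cells. Cdh19 lay at 4.12, 4.10 and 6.43 in the QKI shRNA line, and without array 3 its change was 0.79 (adjusted p = 0.0637). On the control arrays Cdh19 lay at 3.24 to 3.40, under the 25th percentile of cluster means (3.45), so the size of its change is uncertain. It was called in 7 of 14 other settings, and leaving out any 1 non-silencing shRNA array also ended the call.

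The genes whose levels were most like Gfap and S100b over the 18 arrays were sought among 10864 named clusters. Closest to Gfap were Celf3 (Pearson r = 0.954), Brinp1 (r = 0.927), Kcnt1 (r = 0.918), Erc2 (r = 0.905) and Tspan11 (r = 0.899). Brinp1 averaged 7.40 in the QKI shRNA line, 3.31 in the non-silencing shRNA line and 6.17 in untreated cells, a span wider than that of Gfap. Closest to S100b were Pim3 (r = 0.948), Slc22a17 (r = 0.947), Mb21d2 (r = 0.946), Gpr37l1 (r = 0.944) and Gabbr1 (r = 0.936). Gpr37l1 averaged 6.39 in the QKI shRNA line, 10.43 in the non-silencing shRNA line and 8.87 in untreated cells. The arrays fall into 6 groups that share these differences, so the r values describe these arrays and carry no test.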

How the data were processed

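RNA of 6 groups of CG-4 cells was hybridised to Affymetrix rat exon arrays. The authors deposited log2 values at the gene level and the exon level, and the tools listed are RMA and Partek (per the submitters' processing notes). Their roles and versions and the build were not given in the sources used here. The 36 samples listed are 18 titles at each level, and columns that share a title correlated at 0.958 or more between levels. Intensities carry no read depth, so the number of arrays limits the precision.

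Symbols came from the platform annotation, updated through RefSeq (assembly GRCr8). Features with several symbols were not used to name genes. Promoter sequences are from RefSeq in that assembly, where all 9 genes matched, with 14 starts.

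Comparisons used limma 3.58.1 (with statmod 1.5.0) in R 4.3.3, with 1 mean per group over 18 arrays, lmFit and eBayes, and two-sided tests. Benjamini-Hochberg adjustment ran over all clusters or all probe sets of either level, with calls at an adjusted p under 0.05. The ± is the moderated standard error (12 residual and 3.57 prior degrees of freedom). For exon usage, a probe set's mean had to reach the 25th percentile and its gene needed 3 or more such probe sets, which left 112622. The 3 comparisons of a knockdown with its non-silencing control were tried on simulated data at the gene level, exon level and in exon usage. The simulated arrays were independent, with no pairing. The F test, the difference of QKI effects, the comparisons with untreated cells and the alternatives were not simulated.

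All 9 genes are named, with up to 4 called genes per list by lowest p, the 5 genes most like Gfap and S100b, and the knockdown targets. Some further genes were named after their values were seen (Gja1, Cx3cr1, Csf1r, Itgam and Ptprc). The genes, lists and arrays to leave out were chosen with earlier results of these data known. Replicate numbers come from the titles. Same-numbered arrays deviated together in the shRNA lines (r = 0.25, 0.14 and 0.15) and between the QKI and hnRNP A1 siRNA groups (r = 0.53, 0.32 and 0.35), so the numbers were taken to pair these samples. Of 18 arrays, 9 matched best with an array of their own number. The main tests used no pairing, which entered only the replicate block. In the other comparisons at least 1 pair had an r under 0.1. Alternatives were other normalizations, filters, priors, array weights, a replicate block, exon-level means and leaving out arrays.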

Additional observations from a re-analysis of the deposited data

Results flagged for a closer look

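The change of S100b differed between the line labelled QKI shRNA and QKI siRNA by -2.39 on the log2 scale (-3.68 in the QKI shRNA line and -1.29 with QKI siRNA, each against its own control). It drew attention because the difference itself was tested, with an adjusted p of 0.00268 in limma. S100b was lower on all 3 arrays labelled QKI shRNA and all 3 labelled QKI siRNA than on any of their control arrays. The controls had S100b means of 8.23 (non-silencing shRNA) and 7.56 (non-silencing siRNA), so the difference of effects includes that between controls. The size of the change in the QKI shRNA line is uncertain, as the brightest S100b probe set was dim on some of its arrays. Qki itself had log2 changes of -0.25 in the QKI shRNA line (adjusted p = 0.656, with array 3 above all 3 controls) and -1.44 with QKI siRNA (adjusted p = 0.179). The change of Qki differed between the same comparisons by 1.19 (adjusted p = 0.0432). Whether the changes of S100b and Qki are linked was not tested.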

How the results depend on the processing

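Of 1082 gene-level changes of the 7 genes recomputed under other settings, 978 kept direction and side of the threshold, 21 lost a call, 38 gained one and 45 changed sign.

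For QKI shRNA against its control 3 of 7 genes were called with median centring (Nes lost) or the compared arrays alone (Slc1a3 lost), and 5 with array quality weights (Slc1a2 gained, 0.55, adjusted p = 0.00587). Other counts of the 7 genes changed as follows. With array quality weights it was 4 for QKI siRNA and 1 for hnRNP A1 siRNA against non-silencing siRNA, 1 between these siRNAs, 3 for QKI shRNA, 3 for hnRNP A1 siRNA, 4 for QKI siRNA, 4 for non-silencing shRNA and 5 for non-silencing siRNA against untreated cells, and 3 for the difference of QKI effects. That difference had 2 with quantile normalization, the low-intensity filter or exon-level means. With median centring or the compared arrays alone there was 1 for non-silencing shRNA and 0 for QKI siRNA against untreated cells. Without untreated array 3 and QKI shRNA array 3 there were 2 for QKI shRNA, 2 for QKI siRNA, 2 for hnRNP A1 siRNA and 1 for non-silencing siRNA against untreated cells. Gfap gained a call in that setting for non-silencing shRNA against untreated cells too (-2.41, adjusted p = 0.00276). Leaving out 1 array gave 2 to 3 for QKI shRNA against its control, below the 4 with all arrays in each case (2 without non-silencing shRNA array 2), 1 to 3 for non-silencing shRNA, 0 to 1 for each siRNA group against untreated cells and 1 to 2 for the difference of QKI effects. The share of all clusters called was not computed under these other settings, so the counts are not read as particular to these genes. The cause was not tested.

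The replicate block left every count of genes called within 1.5 times (4 for the QKI shRNA line) and lost no call of a gene named above. Exon-level calls for that line were 17 with the replicate block and 10 to 13 when leaving out 1 array.

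Signs turned, in values that passed no test, as follows.
Quantile normalization gave -0.23 for Vim in non-silencing shRNA and -0.025 for Aqp4 in hnRNP A1 siRNA against untreated cells, and 0.018 for Aqp4 and 0.0085 for Vim in the difference of QKI effects. Median centring gave -0.014 for Aqp4 in hnRNP A1 siRNA and -4e-04 for Slc1a2 in QKI shRNA against untreated cells. Array quality weights gave 0.16 for Gfap and 6e-04 for Slc1a2 in QKI siRNA and -0.042 for Slc1a3 in hnRNP A1 siRNA against non-silencing siRNA, -0.053 for Vim between these siRNAs, and -0.26 for Gfap and -0.18 for Slc1a3 in QKI shRNA against untreated cells. Exon-level means gave 0.014 for Aqp4 in non-silencing siRNA and -0.12 for Vim in non-silencing shRNA against untreated cells. Without QKI shRNA array 3 and untreated array 3, QKI shRNA against untreated cells gave -0.71 for Gfap and -0.46 for Slc1a3, and the difference of QKI effects 0.078 for Aqp4. Leaving out 1 array gave -0.17 to 0.095 for Slc1a2 and -0.36 to 0.38 for Gfap in QKI siRNA, and -0.12 to 0.29 for Slc1a3 and -0.68 to 0.060 for Gfap in hnRNP A1 siRNA, against non-silencing siRNA, and -0.065 to 0.42 for Vim between these siRNAs. Against untreated cells it gave -0.081 to 0.012 for Aqp4 in non-silencing siRNA, -0.15 to 0.0066 for Aqp4 and -0.16 to 0.25 for Vim in non-silencing shRNA, and -0.069 to 0.22 for Slc1a2, -0.037 to 0.19 for Aqp4, -0.099 to 1.03 for Gfap and -0.18 to 0.42 for Slc1a3 in QKI shRNA. The difference of QKI effects ran from -0.15 to 0.078 for Aqp4.
Aqp4 is near background on these arrays, which limits its values.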
